A study of Rattus norvegicus with 9 samples.

Results

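The genes described here are 10 named adipogenic genes of 19085 genes listed: the hormone gene Lep, the transcription factor genes Pparg, Cebpa, Cebpb and Cebpd, and the lipid and adipokine genes Lpl, Fabp4, Cd36, Plin2 and Adipoq. They were taken by gene symbol, 9 of them had a row in the deposited table, and Cd36 was not analysed here. Lep was selected for its high values in the PD03 group, so its values are given as a description with no test, while the others were chosen by name for their role in fat cells, with earlier results of these data known, so their p-values are not independent evidence. Messenger RNA came from primary calvarial osteoblasts of newborn (24-hour-old) Sprague-Dawley males, although the tissue label reads knee. All cells were kept for 7 days in osteogenic induction medium, which contained dexamethasone, β-glycerophosphate and ascorbic acid. The control group received that medium alone, the thrombin group also received 20 U/mL thrombin, and the PD03 group received 20 U/mL thrombin together with the MEK inhibitor PD0325901, here called PD03. MEK is the kinase that activates ERK. The dose of PD03 is 0.1 μM in the series design, while a protocol of the labels writes it in mM. Each group had 3 libraries, numbered 1 to 3, and no group received PD03 without thrombin. The sources used here do not say how many animals were pooled or whether the 3 libraries of a group came from separate animals, so p-values measure only the spread between these libraries.

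Fat cells and osteoblasts arise from a common mesenchymal progenitor, and dexamethasone can favour either fate in culture. In fat cell differentiation, C/EBPβ (Cebpb) and C/EBPδ (Cebpd) act early and induce PPARγ (Pparg) and C/EBPα (Cebpa), which maintain each other and switch on genes for lipid uptake and storage. Leptin (Lep), adiponectin (Adipoq) and the fatty acid binding protein Fabp4 are products of mature fat cells, and leptin signals body fat stores to the brain through the receptor Lepr.

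The upstream sequences of genes in the leptin and PPARγ to C/EBP chain are shown because they belong to the gene with the widest range (Lep), the main regulator (Pparg) and the factor that moved the other way (Cebpb). They were taken from RefSeq (assembly GRCr8), which held an entry for 7 of the 10 genes, each as the 250 bases before an annotated start, 5′ to 3′ on the strand of the gene. The deposited table gives no coordinates, and all 4 windows printed lie on the + strand, each upstream of the transcript it precedes. Capitals mark matches to the motifs searched on both strands. Pparg has windows for different starts, and the second lies inside the gene, downstream of the first start.
Lep, chr4:58626288-58626537: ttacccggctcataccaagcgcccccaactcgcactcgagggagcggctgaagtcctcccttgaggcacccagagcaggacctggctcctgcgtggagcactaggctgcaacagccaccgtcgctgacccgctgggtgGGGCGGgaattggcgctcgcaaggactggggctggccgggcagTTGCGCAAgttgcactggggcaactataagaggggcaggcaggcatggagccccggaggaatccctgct
Pparg, first window, chr4:150096808-150097057: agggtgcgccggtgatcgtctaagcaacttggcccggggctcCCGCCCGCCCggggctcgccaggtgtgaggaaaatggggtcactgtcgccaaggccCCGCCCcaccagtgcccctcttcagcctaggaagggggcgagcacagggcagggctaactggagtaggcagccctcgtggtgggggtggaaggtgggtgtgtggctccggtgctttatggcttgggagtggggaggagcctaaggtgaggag
Pparg, second window, chr4:150154522-150154771: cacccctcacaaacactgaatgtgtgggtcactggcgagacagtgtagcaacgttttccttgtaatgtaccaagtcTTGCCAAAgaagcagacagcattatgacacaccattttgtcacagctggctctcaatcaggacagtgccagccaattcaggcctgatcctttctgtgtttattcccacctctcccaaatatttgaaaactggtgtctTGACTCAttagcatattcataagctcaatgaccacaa
Cebpb, chr3:176816755-176817004: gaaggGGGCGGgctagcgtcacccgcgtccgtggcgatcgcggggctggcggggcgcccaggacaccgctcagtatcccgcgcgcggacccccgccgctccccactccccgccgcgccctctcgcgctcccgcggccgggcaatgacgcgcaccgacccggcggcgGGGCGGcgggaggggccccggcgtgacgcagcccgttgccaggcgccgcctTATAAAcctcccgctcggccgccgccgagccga

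The Lep window held a match to the C/EBP motif TTGCNNAA, 69 to 62 bases before the start, and a GC box (GGGCGG) 112 to 107 bases before it. The C/EBP motif was found in 9.22% and the GC box in 30.5% of all 33469 windows of this length. The second Pparg window held a C/EBP motif, 174 to 167 bases before the start, and a match to the AP-1 motif TGANTCA, 37 to 31 bases before it, a motif present in 6.34% of all windows. The first Pparg window held 3 GC boxes on the other strand, of which 1 pair overlapped by 2 bases. The Cebpb window held a TATA box (TATAAA, in 12.9% of all windows) 33 to 28 bases before the start and a pair of GC boxes. The E-box CACGTG (5.59% of all windows) and the direct repeat bound by nuclear receptors (0.368%) had no match in these 4 windows. The C/EBP motif had no match in the Cebpb window, nor in the windows of Cebpa, Cd36, Plin2 and Adipoq, which are not printed. These matches describe letters in the sequence, and binding was not measured.

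Total counts were 15447832 to 19841468 per library. In each group, library 1 stood apart: pairs that held it differed with a chi-square per degree of freedom of 3.06 to 4.03, and pairs of libraries 2 and 3 with 1.82 to 2.15. Results that changed without the 3 libraries numbered 1 are therefore given with that value, an alternative chosen after seeing the data. Levels are given as CPM, the counts scaled to a common library size with TMM factors. A call needed an adjusted p-value under 0.05 (edgeR quasi-likelihood test, Benjamini-Hochberg adjustment over all 13256 tested genes) and a log2 fold change larger than 0.58 in size. Of the 9 genes with a row, 7 had enough counts for the test. Lep passed that filter only through the PD03 group, and Pparg through the control and PD03 groups, whereas Fabp4 and Adipoq did not pass it. Some other genes named below also passed it through the groups where they are high, which limits their p-values. With PD03, Apln had 4 to 6 counts. With thrombin, Zbtb16 had 3 to 7, Lepr 3 to 9, Cfd 5 to 9, Kdr 4 to 19 and Alpl 6. In control, Csf1r had 5 to 9, Kdr 9 to 10 and Acan 7 to 13.

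Lep (ENSRNOG00000045797) was lowest in the thrombin group and highest in the PD03 group. Its raw counts were 6, 17 and 10 in the control libraries, 0, 2 and 2 in the thrombin libraries, and 81, 92 and 55 in the PD03 libraries. These correspond to 0.326, 1.07 and 0.632 CPM in control, 0, 0.110 and 0.117 CPM with thrombin, and 4.29, 5.96 and 3.37 CPM with PD03. The 3 groups did not overlap, and even the lowest PD03 library was above every control library. Group means were 0.677 ± 0.376 CPM in control, 0.0754 ± 0.0654 CPM with thrombin and 4.54 ± 1.31 CPM with PD03 (SD, n = 3).

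Summed over each group, Lep had 33 counts in control, 4 with thrombin and 228 with PD03. Scaled for library size, the PD03 sum was 58.7 times the thrombin sum (95% exact interval 22.6 to 217) and 6.83 times the control sum (4.73 to 10.2). The thrombin sum was 0.116 times the control sum (0.0299 to 0.327). These intervals describe counting error only and are no test, and the small thrombin counts make the first and last ratio imprecise. The fitted log2 differences were 5.75 between PD03 and thrombin, -3.0 between thrombin and control and 2.76 between PD03 and control. Over the alternative settings that gave a value they ranged from 1.16 to 6.14, from -3.38 to -0.24 and from 0.92 to 3.24, each smallest in size when 1 was added to the deposited FPKM values. The comparisons share libraries, so the low thrombin values count in 2 of the 3 differences. In bulk RNA, more leptin-expressing cells and more leptin RNA per cell cannot be told apart.

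**Figure D1:**
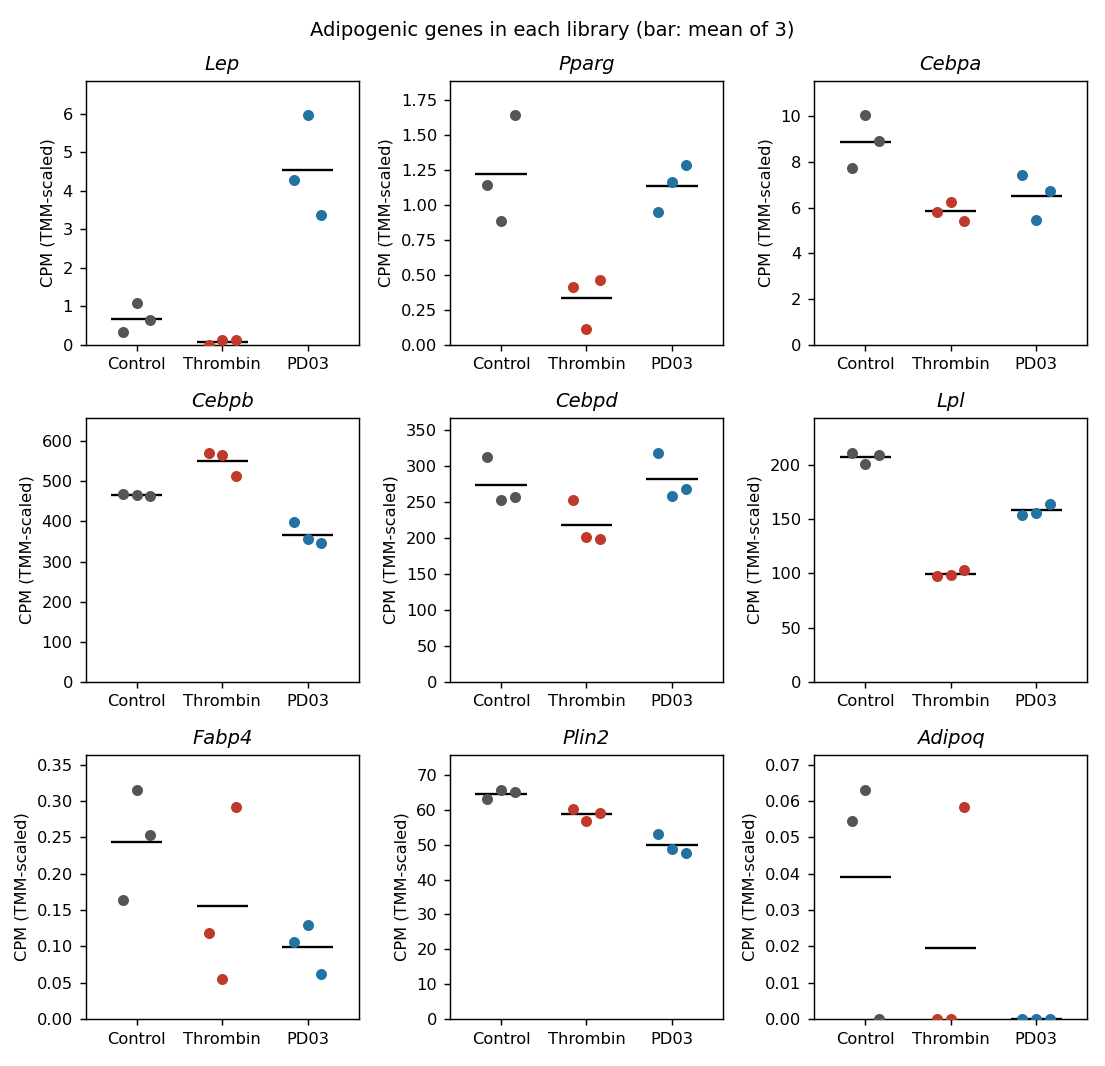
Level of each of the 9 genes with a row, in CPM (TMM-scaled) on the vertical axis of each panel, by group. Each point is 1 library, in the order 1 to 3 from left to right, and the bar is the mean of 3. The PD03 libraries of Lep lie between 3.37 and 5.96 CPM, above the other 6, and the thrombin libraries of Pparg and Lpl lie below both other groups.

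Among the 8 other genes with a row, 6 were tested, and the counts and medians below describe those 6 only, of which Pparg passed the filter through the groups where it is high. For thrombin against control, 3 of the 6 were called lower (Pparg, Cebpa and Lpl) and 0 higher by edgeR, DESeq2 or limma voom, while 5.44% of all tested genes were called lower and 2.62% higher. At an unadjusted p under 0.05, 1 of the 6 (Cebpb) was higher and 5 were lower. The share of all tested genes at an unadjusted p was not computed, here or for the lists below. At an adjusted p under 0.05 with no fold threshold, 1867 of all 13256 tested genes were higher and 1941 lower. For PD03 against thrombin, 2 were called higher (Pparg and Lpl) and 1 lower (Cebpb), against 9.61% of all tested genes called higher and 6.31% lower. For PD03 against control, 0 were called in either direction by edgeR, DESeq2 or limma voom, against 4.90% of all tested genes higher and 4.07% lower. Both at an adjusted and at an unadjusted p under 0.05, 4 of the 6 were lower (Cebpa, Cebpb, Lpl and Plin2) and 0 higher. At that adjusted p with no fold threshold, 2616 of all 13256 tested genes were higher and 2673 lower. The median log2 fold change of the 6 was -0.47 for thrombin against control, 0.27 for PD03 against thrombin and -0.36 for PD03 against control. Over all tested genes the medians were -0.006, 0.0109 and -0.0039.

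Pparg (ENSRNOG00000008839), which encodes the nuclear receptor required for fat cell formation, fell with thrombin and stood near the control level with PD03. Its raw counts were 21, 14 and 26 in control, 7, 2 and 8 with thrombin, and 18, 18 and 21 with PD03. In CPM these were 1.14, 0.884 and 1.64 in control, 0.416, 0.110 and 0.466 with thrombin, and 0.954, 1.17 and 1.29 with PD03. Every thrombin library was below every other library, and the control and PD03 libraries overlapped. The fitted log2 fold change was -1.88 (SE 0.456, adjusted p = 0.0013) for thrombin against control and 1.77 (SE 0.461, adjusted p = 0.0014) for PD03 against thrombin. For PD03 against control it was -0.11 (SE 0.365, adjusted p = 0.84), and the ratio of the summed counts was 0.923 with a 95% counting interval from 0.632 to 1.35. Pparg is a low gene that passed the filter through the groups where it is high. With no filter on low counts the log2 fold changes were -1.87 (adjusted p = 0.00049) and 1.75 (adjusted p = 0.00075). Its calls ended when 1 was added to the FPKM values, where the log2 fold changes were -0.45 and 0.38.

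Cebpa (ENSRNOG00000010918), the partner of Pparg in maintaining the fat cell program, fell with thrombin by a smaller margin and was not called with PD03. It measured 7.72, 10.0 and 8.91 CPM in control, 5.83, 6.25 and 5.42 CPM with thrombin, and 7.42, 5.44 and 6.73 CPM with PD03. The thrombin and PD03 libraries overlapped, and both groups lay below every control library. Its log2 fold change was -0.60 (SE 0.145, adjusted p = 0.0013) for thrombin against control, just past the fold threshold, and it was not called without control library 2 (-0.50) or without thrombin library 3 (-0.55). It was 0.17 (SE 0.151, adjusted p = 0.37) for PD03 against thrombin. For PD03 against control it was -0.43 (SE 0.144, adjusted p = 0.014), not called, and without the libraries numbered 1 it was -0.63 (adjusted p = 0.002), which was called.

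Cebpb (ENSRNOG00000057347), an early factor of the cascade that also acts in inflammatory responses, went the other way. It measured 468, 465 and 463 CPM in control, 572, 567 and 513 CPM with thrombin, and 398, 356 and 346 CPM with PD03. The groups did not overlap and the order was thrombin, control, PD03 from high to low. For PD03 against thrombin the log2 fold change was -0.58 (SE 0.0418, adjusted p = 1.4e-15), called by a narrow margin. It was just short of the fold threshold when thrombin library 1 (-0.57), thrombin library 2 (-0.57), PD03 library 2 (-0.57) or PD03 library 3 (-0.54) was left out. The difference of 0.24 for thrombin against control (SE 0.0414, adjusted p = 1e-05) and of -0.34 for PD03 against control (SE 0.0419, adjusted p = 6.6e-09) passed the p threshold and not the fold threshold.

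Cebpd (ENSRNOG00000050869), the other early factor and a gene induced by glucocorticoids, passed no fold threshold. It measured 313, 252 and 257 CPM in control, 252, 202 and 198 CPM with thrombin, and 319, 259 and 268 CPM with PD03. Library 1 was the highest of its group in each case, and the thrombin group lay below the others by a narrow gap. The log2 fold change was -0.33 (SE 0.0671, adjusted p = 0.00012) for thrombin against control and 0.38 (SE 0.067, adjusted p = 7.9e-06) for PD03 against thrombin. PD03 and control libraries overlapped, with a log2 fold change of 0.04 (SE 0.0663, adjusted p = 0.66), whose sign changed with the scaling, to -0.08 with library totals.

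Lpl (ENSRNOG00000012181), which encodes the lipoprotein lipase that releases fatty acids from circulating triglyceride, fell with thrombin and rose in part with PD03. It measured 212, 201 and 209 CPM in control, 97.5, 98.1 and 103 CPM with thrombin, and 154, 156 and 164 CPM with PD03. No groups overlapped, and the PD03 group lay between the others. The log2 fold change was -1.06 (SE 0.043, adjusted p = 1.9e-23) for thrombin against control, called in all 22 alternatives. It was 0.67 (SE 0.0435, adjusted p = 7e-17) for PD03 against thrombin, called in 17 of 22 alternatives. Among the settings that lost this call were library totals (0.57) and FPKM values with 1 (0.55) or 0.1 (0.57) added. For PD03 against control the log2 fold change was -0.39 (SE 0.0416, adjusted p = 2.5e-10), short of the fold threshold.

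Plin2 (ENSRNOG00000007060), a coat protein of lipid droplets in many cell types, differed little. It measured 63.1, 65.8 and 65.1 CPM in control, 60.1, 56.9 and 59.2 CPM with thrombin, and 53.0, 48.8 and 47.5 CPM with PD03. The 3 groups did not overlap, and the PD03 group was the lowest. The log2 fold changes were -0.14 (SE 0.056, adjusted p = 0.061) for thrombin against control, -0.24 (SE 0.0573, adjusted p = 6e-04) for PD03 against thrombin and -0.37 (SE 0.057, adjusted p = 7.3e-07) for PD03 against control, none past the fold threshold.

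The 2 genes that mark mature fat cells most closely were barely detected. Fabp4 (ENSRNOG00000010805) had 3, 5 and 4 counts in control, 2, 1 and 5 with thrombin, and 2, 2 and 1 with PD03. The summed PD03 counts were 0.412 times those of control, with a 95% counting interval from 0.114 to 1.26. Adipoq (ENSRNOG00000001821), the gene of adiponectin, had 1, 1 and 0 counts in control, 0, 0 and 1 with thrombin, and 0 in all 3 PD03 libraries. A floor of 3 counts over the PD03 group corresponds to 0.0592 CPM, so a difference in Adipoq was not detectable at this depth.

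**Figure D2:**
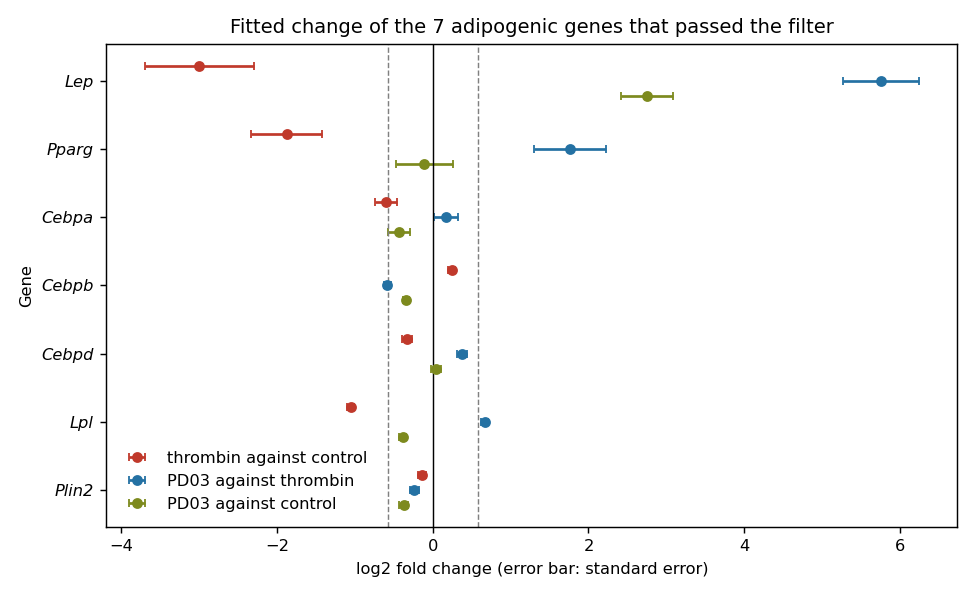
Fitted log2 fold change (horizontal axis) of the 7 tested genes in the 3 comparisons, with the standard error as the bar and dashed lines at the fold threshold of 0.58. Lep lies farthest from 0 and was selected for its PD03 values, Pparg falls with thrombin and returns with PD03, and Cebpb has the opposite signs.

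Levels of different genes were compared per transcript length, with the FPKM values deposited by the authors, and the order is descriptive. In control, Cebpd (223 ± 29.8 FPKM) and Cebpb (203 ± 2.99 FPKM) were the highest and their libraries overlapped. They were followed by Lpl (58.0 ± 2.00 FPKM), Plin2 (21.6 ± 0.278 FPKM) and Cebpa (3.07 ± 0.377 FPKM), with no overlap between neighbours. Pparg (0.581 ± 0.181 FPKM) came next, then Lep (0.212 ± 0.116 FPKM) and Fabp4 (0.144 ± 0.0441 FPKM), whose libraries overlapped, and Adipoq was last (0.0272 ± 0.0237 FPKM; SD, n = 3 for each). The early factors were thus far above Pparg and Cebpa in every group. With thrombin, Cebpb (237 ± 14.6 FPKM) lay above Cebpd (175 ± 24.5 FPKM) in all libraries, and with PD03 Cebpd (212 ± 24.3 FPKM) lay above Cebpb (147 ± 11.3 FPKM). Lep moved from below Pparg in control to above it with PD03, where it measured 1.31 ± 0.383 FPKM and Pparg 0.498 ± 0.0731 FPKM without overlap.

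**Figure D3:**
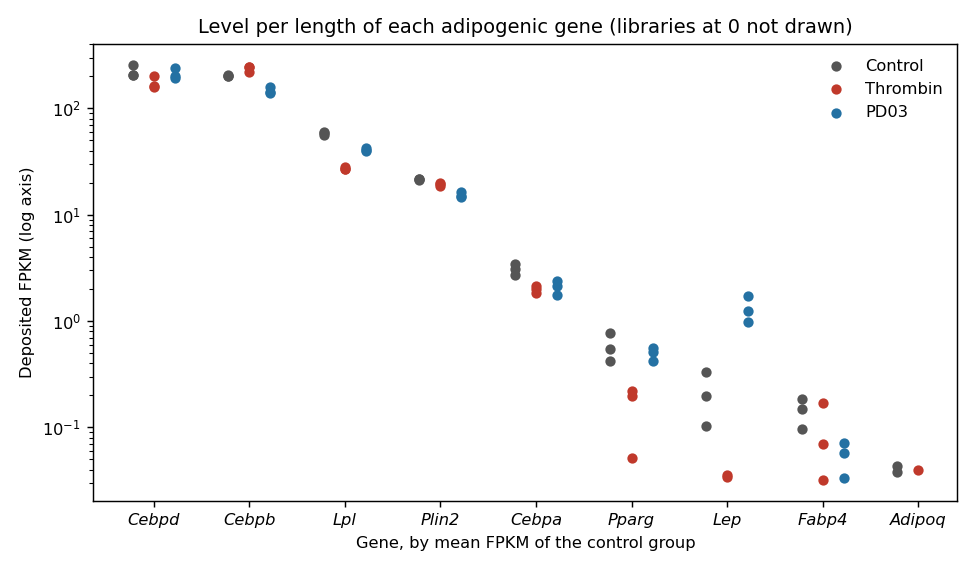
Deposited FPKM (vertical axis, log scale) of each gene by library, with genes ordered by their mean in the control group and 1 point for each library. Libraries at 0 are not drawn, which leaves out 1 thrombin library of Lep and most libraries of Adipoq. Lep rises from near the Fabp4 level in control to just under the Cebpa level with PD03.

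The wider set of adipogenic genes held 74 listed genes beyond these 10, of which 72 had a row and 62 were tested. For thrombin against control, 1 was called higher and 9 lower (median log2 fold change -0.09), beside 2.62% of all tested genes called higher and 5.44% lower. For PD03 against thrombin, 13 were called higher and 5 lower (median 0.09), beside 9.61% and 6.31% of all tested genes. For PD03 against control, 6 were called higher and 2 lower (median 0.02), beside 4.90% and 4.07% of all tested genes. Of 5 tested lipid droplet genes, 0 were called by edgeR in any comparison, while at an unadjusted p under 0.05 the number was 1 (lower) for thrombin against control, 2 (higher) for PD03 against thrombin and 1 (higher) for PD03 against control.

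Among 18 tested factors that promote fat cell formation, 4 were called higher and 1 lower for PD03 against thrombin (9.61% and 6.31% of all tested genes), and 4 were called lower for thrombin against control (5.44% of all tested genes). The 1 lower call is near the background. Klf15, a factor that promotes adipogenesis and is induced by glucocorticoids, measured 12.6 ± 0.841 CPM in control, 6.37 ± 1.94 CPM with thrombin and 13.3 ± 1.34 CPM with PD03. Thrombin lowered it against control by a log2 fold change of -0.99 (adjusted p = 3e-07), and PD03 against thrombin gave 1.07 (adjusted p = 1.8e-08). Ebf2, known as a brown fat factor, measured 12.6 ± 2.26 CPM with thrombin and 7.81 ± 0.762 CPM with PD03, and its fall of -0.69 on the log2 scale (adjusted p = 1.6e-05) was not called without thrombin library 1 (-0.58, just short of the threshold) or without all libraries numbered 1 (-0.52). Among 9 tested factors that restrain fat cell formation, 3 were called higher (9.61% of all tested genes) and 0 lower by edgeR for PD03 against thrombin, and 3 were higher and 3 lower at an unadjusted p under 0.05. Klf2, which represses Pparg, showed the largest rise of these, from 6.76 ± 0.796 CPM with thrombin to 45.1 ± 2.75 CPM with PD03 (log2 fold change 2.74, adjusted p = 1.3e-23). Klf2 thus rose in the same comparison as Pparg, and its control level of 7.81 ± 2.23 CPM overlapped that of the thrombin group.

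Of the enzymes, 1 of 5 for triglyceride synthesis and 1 of 4 for lipolysis were called higher for PD03 against thrombin, where 9.61% of all tested genes were. The median log2 fold change of the triglyceride synthesis genes was -0.22, and at an unadjusted p under 0.05 they were 1 higher and 3 lower. Gpam, the enzyme of the first step of glycerolipid synthesis, measured 76.3 ± 3.18 CPM in control, 59.2 ± 4.31 CPM with thrombin and 120.0 ± 3.67 CPM with PD03 (log2 fold change 1.02 for PD03 against thrombin, adjusted p = 4.6e-20). Mgll, which cleaves monoglycerides, measured 3.75 ± 0.503 CPM with thrombin and 7.74 ± 0.421 CPM with PD03 (1.05, adjusted p = 8.4e-07). Of 12 tested genes of fatty acid and glucose uptake, 1 was called higher and 3 lower in that comparison, beside 9.61% and 6.31% of all tested genes, so the higher count is near the background. Vldlr, a lipoprotein receptor that works alongside Lpl, was higher with PD03 at 24.4 ± 0.787 CPM than with thrombin at 9.29 ± 0.338 CPM (1.39, adjusted p = 9.9e-16). Acsl1, which activates long-chain fatty acids, was lower at 21.6 ± 0.463 CPM against 35.6 ± 0.866 CPM (-0.72, adjusted p = 5.2e-11).

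Of 9 tested adipokine and receptor genes, 3 were called higher and 1 lower for PD03 against thrombin (9.61% and 6.31% of all tested genes), and 4 were called lower for thrombin against control (5.44% of all tested genes). Of those 4, Cfd (adjusted p = 0.055) and Lepr (adjusted p = 0.077) were not called by DESeq2, which left 2, and the call of Cfd was also lost without control library 2 (adjusted p = 0.091), thrombin library 2 (adjusted p = 0.064) or thrombin library 3 (adjusted p = 0.071). Rarres2, which encodes the adipokine chemerin, measured 32.2 ± 1.55 CPM in control, 6.27 ± 1.13 CPM with thrombin and, with PD03, 48.6 ± 3.44 CPM. The log2 fold changes were -2.35 for thrombin against control (adjusted p = 7.7e-23) and 2.95 for PD03 against thrombin (adjusted p = 2e-27). The order of the 3 groups was thus that of Lep, and no libraries overlapped between groups. Apln, the gene of the peptide apelin, was lower with PD03 at 0.315 ± 0.0542 CPM than with thrombin at 1.42 ± 0.422 CPM (-2.14, adjusted p = 4.7e-05). It passed the filter only through the control and thrombin groups, where it is high. Lepr, the leptin receptor, measured 0.880 ± 0.327 CPM in control, 0.321 ± 0.160 CPM with thrombin and 0.696 ± 0.226 CPM with PD03. It was called lower for thrombin against control (-1.44, adjusted p = 0.023), a call lost without control library 1 (-1.08, adjusted p = 0.19), thrombin library 1 (-1.16, adjusted p = 0.11) or thrombin library 3 (-1.37, adjusted p = 0.078), without all libraries numbered 1 (-0.80, adjusted p = 0.38) and with DESeq2. It was not called for PD03 against thrombin (1.10, adjusted p = 0.07).

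**Figure D4:**
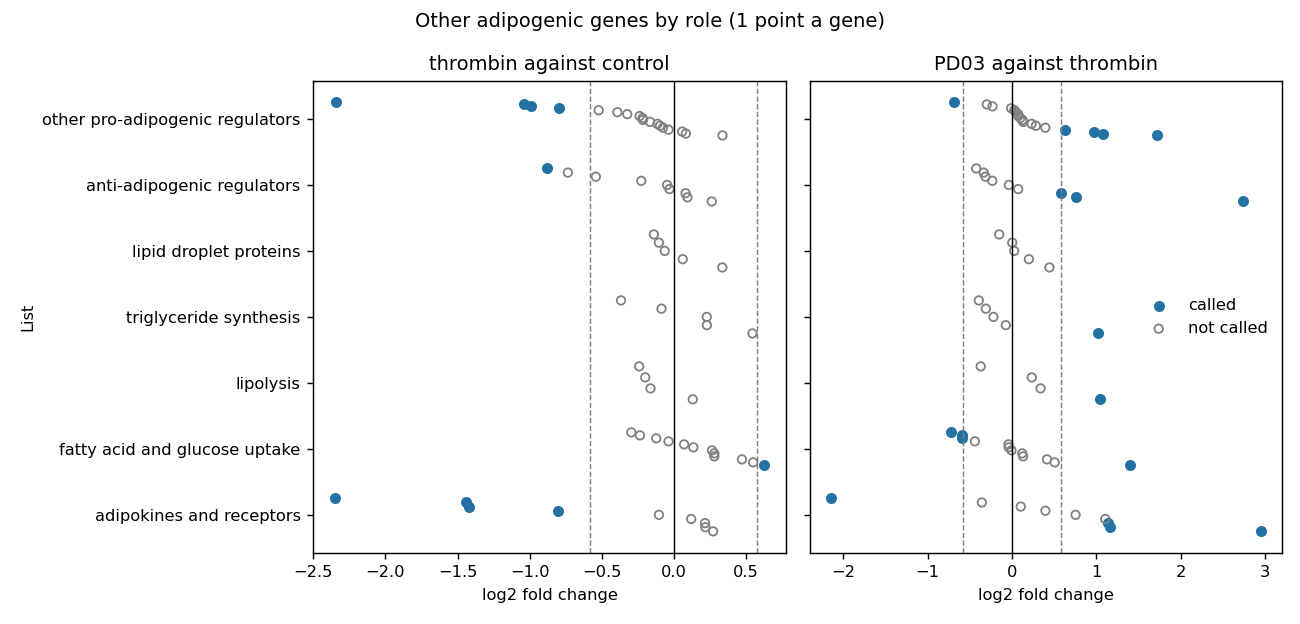
Log2 fold change (horizontal axis) of the 62 other tested adipogenic genes, 1 point for each gene, in rows by role, for thrombin against control on the left and PD03 against thrombin on the right. Filled points were called and dashed lines mark the fold threshold of 0.58. In the right panel 13 points are called higher and 5 lower, and no lipid droplet gene is called in either panel.

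Markers of cell types were read beside these values. Of 7 adipocyte markers, 2 (Lipe and Cfd) had enough counts for the test, and the summed level was 7.2 to 9.57 CPM in control, 7.57 to 9.27 CPM with thrombin and 6.83 to 7.06 CPM with PD03. Most of this sum was Lipe, a lipase also found outside fat cells, with means of 6.76, 7.44 and 5.74 CPM. Adipoq was at 0 with PD03, whereas Plin1, the droplet coat protein of mature fat cells, had 1, 1 and 9 counts summed over the control, thrombin and PD03 groups. All 9 osteoblast markers had a row, 6 were tested, and their sum was 44410 to 49380 CPM in control, 41350 to 44750 CPM with thrombin and 71250 to 73230 CPM with PD03, with Dmp1 and Ibsp at 0 in the thrombin group. Nearly all of this sum was Col1a1 (means of 47443, 42854 and 72132 CPM), and the list did not move together. For PD03 against thrombin, 2 of the 6 were called higher (Col1a1 and Alpl) and 2 lower (Runx2, -0.67, and Spp1, -1.80). Of all tested genes, 9.61% were called higher and 6.31% lower in that comparison. Of 9 macrophage markers, 2 were tested, and the sum was 20.7 to 24.0, 29.1 to 33.0 and 17.6 to 19.4 CPM in the same order, with Aif1 at 0 in control and thrombin. That sum was mostly Cd14 (20.5, 29.3 and 15.7 CPM), which was called lower for PD03 against thrombin (-0.91, adjusted p = 4.6e-12). Csf1r (0.440, 0.746 and 1.24 CPM), with 5 to 9 counts in control, was called higher for PD03 against control (1.47, adjusted p = 0.0045). Of all tested genes, 6.31% were called lower in the first of these comparisons and 4.90% higher in the second. Endothelial markers (5 of 7 with a row, 3 tested) summed to 7.89 to 8.90, 7.35 to 9.76 and 12.0 to 14.1 CPM, with Tie1 at 0 in control. Most of that sum was Tek (6.46, 6.17 and 9.51 CPM). Kdr measured 0.563, 0.692 and 1.88 CPM, while Vwf differed little (1.11, 1.25 and 1.18 CPM). For PD03 against thrombin, 2 of the 3 were called higher (Tek, 0.62, and Kdr, 1.42), beside 9.61% of all tested genes. For PD03 against control, 1 was called higher (Kdr, 1.72), beside 4.90%. Chondrocyte markers (4 of 5 with a row, 4 tested) summed to 90.5 to 101, 66.3 to 71.8 and 77.7 to 85.0 CPM. Most of it was Col2a1 (84.4, 49.2 and 56.4 CPM), called lower than control with thrombin (-0.777) and narrowly with PD03 (-0.582). Sox9 (7.68, 14.3 and 16.2 CPM) and Acan (0.590, 1.43 and 1.19 CPM) were called higher than control in both other groups. Col9a1 (4.09, 3.77 and 7.47 CPM) was called higher with PD03 than in either other group. Thus 2 of 4 were called higher and 1 lower for thrombin against control, beside 2.62% and 5.44% of all tested genes. For PD03 against control, 3 were called higher and 1 lower, beside 4.90% and 4.07%. The part of these cell types in the values above was not tested. All 5 genes chosen as readouts of MEK to ERK signalling (Dusp6, Spry2, Spry4, Etv4 and Etv5) were called lower with PD03 than with thrombin, beside 6.31% of all tested genes. For thrombin against control, edgeR called 0 of 5, beside 5.44% of all tested genes lower and 2.62% higher. At an unadjusted p under 0.05, 4 of the 5 were lower there.

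The genes most like Lep over the 9 libraries, by Pearson correlation of log2 CPM among 12655 genes compared, were Tcn2 (0.987), Gde1 (0.985), Col4a5 (0.983), Nagk (0.982) and Npr2 (0.981). Tcn2, which encodes the vitamin B12 carrier transcobalamin, measured 67.9 to 75.8 CPM in control, 56.3 to 57.4 CPM with thrombin and 90.2 to 99.7 CPM with PD03, the same order of groups as Lep with a much narrower range. Those most like Pparg were Tnfrsf1a (0.968), Elf1 (0.963), Igsf1 (0.960), Lrrc3 (0.957) and Zim1 (0.954). Tnfrsf1a, a receptor for tumour necrosis factor, measured 233 to 247 CPM in control, 203 to 221 CPM with thrombin and 229 to 236 CPM with PD03. These correlations describe 9 libraries that fall into 3 treatment groups.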

How the data were processed

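Messenger RNA of 9 libraries was sequenced. The authors deposited raw counts per gene, and FPKM values beside them. The study's methods name fastp, HISAT2, Rnor_6.0, featureCounts and DESeq2, whereas the submitters' processing notes name HISAT2, HTSeq 0.13.5 and mRatBN7.2. Whether counting used strand is not stated in the sources read, so it is not known whether reads of overlapping genes were separated. The members and lists were chosen with earlier results of these data known.

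Of the 19085 genes listed, 2048 lacked a symbol. Genes were filtered with edgeR's filterByExpr (minimum count 10), which left 13256. Libraries were TMM-scaled and the 3 groups fitted together (R 4.3.3, edgeR 4.0.16, quasi-likelihood, Benjamini-Hochberg). The biological coefficient of variation was 4.28%. Group membership came from the labels. Alternatives used DESeq2 1.42.0, limma 3.58.1 (voom, and FPKM plus 1 or 0.1), glmTreat, other scalings, filters and fold thresholds, a replicate block, and each library left out. Named genes beyond the members were, in each role, the called gene with the largest change each way for PD03 against thrombin with at least 1 CPM, and the 5 most like Lep and Pparg. Others were chosen after their values were seen. The procedure was tested on simulated data, and plots used Python 3.11.15 with matplotlib 3.10.9.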

Additional observations from a re-analysis of the deposited data

How the results depend on the processing

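Counts of called genes were taken over the 6 tested genes other than Lep and over the 62 other adipogenic genes. Only the larger changes in these counts are listed, and smaller ones are given in part. For the 6, the genes called higher for PD03 against thrombin numbered 2, and 3 without the fold threshold (with Cebpd), 1 with library totals, with a mean count of at least 50, with a fold threshold of 1, with glmTreat and with FPKM plus 0.1, and 0 with FPKM plus 1. The 1 called lower became 2 without the fold threshold, 0 with a fold threshold of 1 or glmTreat, and 0 to 1 when single libraries were left out. For thrombin against control, 1 was called higher without the fold threshold, and the 3 called lower became 1 with FPKM plus 1. The call of Cebpa was also lost with a fold threshold of 1, with glmTreat, without control library 2 or without thrombin library 3. For PD03 against control, 4 were called lower without the fold threshold and 1 without the libraries numbered 1.

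For the 62, PD03 against thrombin gave 26 higher and 14 lower without the fold threshold in place of 13 and 5. Without that threshold, 3358 of all 13256 tested genes were higher and 3250 lower. The 5 became 1 with a fold threshold of 1 or glmTreat and 3 with FPKM plus 1 or without the libraries numbered 1. Of the 13, the calls of Klf3, Klf4, Klf5 and Runx1t1 were lost with a fold threshold of 1. Those of Klf5, Mgll, Runx1t1 and Zbtb16 were lost with FPKM plus 1. Thrombin against control gave 10 higher and 24 lower without the fold threshold in place of 1 and 9, 0 and 5 with a fold threshold of 1 or glmTreat, and 1 to 2 higher when single libraries were left out. Over all 13256 tested genes, 1867 were higher and 1941 lower without the fold threshold. PD03 against control gave 17 higher and 15 lower without the fold threshold in place of 6 and 2. Over all 13256 tested genes, 2616 were then higher and 2673 lower. The 6 became 3 with a fold threshold of 1, glmTreat or FPKM plus 1. The 2 became 0 with a mean count of at least 50 or FPKM plus 1, 1 with glmTreat, and 1 to 2 when single libraries were left out. Where the threshold or filter itself was changed, the counts follow from it, and the cause of the other changes was not tested.

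The sign of 2 uncalled differences changed for PD03 against control. Cebpd gave -0.0756 with library totals, -0.0733 with FPKM plus 1, -0.0736 with FPKM plus 0.1, and -0.058 to 0.15 when single libraries were left out, below 0 without control library 2 or 3 or PD03 library 1. Pparg gave -0.30 to 0.14 when single libraries were left out, above 0 without control library 3 or PD03 library 1.

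Scaling by library totals moved the all-gene median (log2) to -0.12 for PD03 against control, and for PD03 against thrombin it gave 1022 genes higher and 1176 lower in place of 1274 and 836. Over all tested genes, deviations from the group mean were nearly uncorrelated between libraries of the same number (-0.046 to 0.052). For Cebpd, Klf2 and Klf15, library 1 was the highest of each group. Whether libraries of the same number shared a source was not tested. With a replicate block, the log2 fold change of Pparg for PD03 against thrombin was 1.78 (adjusted p = 0.0012), 1264 genes were called higher and 839 lower in that comparison, and the counts for both gene sets were as before. Lep, Fabp4 and Adipoq are limited by counts of 0 to 17 in most libraries.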

Other observations

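Genes of the wider adipogenic set that were called but not taken by the naming rule were chosen after their values were seen. The factors Klf4, Klf5 and Zbtb16 were called lower for thrombin against control and higher for PD03 against thrombin by edgeR, as was Klf15. Runx1t1, which restrains fat cell formation, was called the same way, at -0.88 (adjusted p = 3.8e-06) and then 0.58 (adjusted p = 0.00095). Its second call was narrow and held in 10 of 22 alternatives. Klf3, another restraining factor, was called higher for PD03 against thrombin (0.76, adjusted p = 8.7e-16) but not lower for thrombin against control (-0.54). Klf4 measured 197 ± 4.70 CPM in control, 114 ± 7.94 CPM with thrombin and 223 ± 6.60 CPM with PD03. Klf5 measured 32.5 ± 2.40, 15.7 ± 2.07 and 24.3 ± 3.62 CPM, and its rise with PD03 was not called without thrombin library 1 (log2 fold change 0.52), PD03 library 1 (0.50) or all libraries numbered 1 (0.40). Zbtb16, a gene induced by glucocorticoids, measured 1.50 ± 0.362, 0.285 ± 0.105 and 0.953 ± 0.321 CPM. The retinol carrier Rbp4 measured 9.62 ± 0.951, 5.53 ± 0.259 and 12.2 ± 0.910 CPM. Fabp5, a fatty acid binding protein of many tissues, went the other way, with 87.1 ± 3.37, 135 ± 2.40 and 89.2 ± 2.93 CPM (SD, n = 3 for each).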
